A study of Mus musculus with 5 samples.

Results

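The enzymes and receptors of the prostaglandin and leukotriene pathway were examined in macrophages that had shared medium with either WT or *Adam17*-/- cancer cells. The set holds 10 genes chosen by symbol: the cyclooxygenases *Ptgs1* and *Ptgs2*, the prostaglandin E synthase *Ptges*, the leukotriene genes *Alox5*, *Alox5ap*, *Lta4h* and *Ltc4s*, and the receptors *Ptger2*, *Ptger4* and *Ltb4r1*. All 10 were found among the 17058 gene identifiers of the 5 libraries, and all 10 were among the 12576 genes with enough counts to be tested. Bone marrow-derived macrophages (BMDMs) from BALB/c mice aged 6 to 12 weeks, differentiated with M-CSF, were cultured for 48 hours across a porous membrane from 4T1 cells, a mouse mammary carcinoma line, and macrophage poly-A RNA was sequenced. The macrophages of both groups were genetically normal, and only the 4T1 cells differed: WT in 2 libraries, and lacking the sheddase ADAM17 after CRISPR/Cas9 editing in 3 libraries. All 3 knock-out libraries carry the same designation of a knock-out line, so the contrast rests on 1 edited line, and no macrophages cultured without cancer cells were analysed here. The labels do not say whether the repeats came from separate mice, so p-values measure the spread between these libraries, which may be technical.

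Arachidonic acid, released from membrane phospholipids, is the common precursor of both families of lipid mediators. Cyclooxygenases turn it into prostaglandin H2, from which terminal synthases make prostaglandin E2, thromboxane A2 and other prostanoids. 5-lipoxygenase, helped by its membrane partner FLAP, turns it into leukotriene A4, which can become leukotriene B4, a neutrophil attractant, or the cysteinyl leukotriene C4. Macrophages are a classical source of both families, and they also carry receptors through which these lipids act back on them.

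Each library held between 14658694 and 20788373 estimated counts, and 3 counts corresponded to 0.157 to 0.197 CPM, the count scaled to a library of fixed size. With edgeR's quasi-likelihood test and Benjamini-Hochberg adjustment over all 12576 genes, 31.7% of genes passed an adjusted p of 0.05, 14.9% higher and 16.8% lower after coculture with *Adam17*-/- cells. Of these calls 46.9% were higher with TMM scaling and 73.7% when libraries were scaled by their total alone, a scaling under which the median gene stood at a log2 fold change of 0.16 in place of 0.01. *Adam17* itself, measured in the macrophages and not in the edited cells, does not check the labels. It stood at 198 and 200 CPM in the WT cocultures and at 152, 164 and 160 CPM in the knock-out cocultures. Macrophage markers were abundant in every library, with a summed level of 27110 to 27760 CPM for 7 genes in WT cocultures and 17580 to 19460 CPM in knock-out cocultures, where 5 of the 7 were lower. Markers of neutrophils moved the opposite way, from 372 to 466 CPM in WT cocultures to 1260 to 1448 CPM in knock-out cocultures, with 9 of 11 genes higher. Dendritic cell markers also stood higher, at 8.23 to 11.4 CPM in WT and 18.2 to 23.9 CPM in knock-out cocultures, with 2 of 4 tested genes higher. Such RNA accompanies each difference given here, and its part in them was not tested. In bulk RNA, fewer cells of a type and less RNA per cell cannot be told apart.

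Macrophages cocultured with *Adam17*-/- 4T1 cells held less RNA for the entry enzyme of leukotriene synthesis, *Alox5*, for its partner *Alox5ap*, for the leukotriene B4 receptor *Ltb4r1* and for the constitutive cyclooxygenase *Ptgs1*, and more for the prostaglandin E2 receptor *Ptger2*. Of the 10 genes, 5 passed the test, 4 lower and 1 higher, against 31.7% of all tested genes. With library-size scaling, 4 passed, 2 lower and 2 higher, beside 1077 lower and 3019 higher among 12576 genes. With limma on FPKM, again 2 were lower and 2 higher. Among 13424 genes, limma called 970 lower and 2777 higher with 0.1 added to FPKM, and 967 and 2708 with 1 added. None of the 5 genes called with TMM reached a log2 fold change of 1 in size. Together with the test, 4.22% of all tested genes passed that limit. The other 5 genes, *Ptgs2*, *Ptges*, *Lta4h*, *Ltc4s* and *Ptger4*, did not pass. Log2 fold changes of the 10 genes had a median of −0.20, beside 0.01 over all tested genes. In 7 of the 10 genes the CPM values of the groups did not overlap, beside 58.1% of all tested genes.

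*Alox5* encodes 5-lipoxygenase and lies on chromosome 6 (GRCm38, 116410071 to 116461178). It was at 169 and 171 CPM in the WT cocultures and at 111, 90.9 and 105 CPM in the knock-out cocultures. The 3 knock-out libraries all lay well below both WT libraries, and the groups did not overlap. *Alox5* fell to 0.603 of its WT level (95% interval 0.519 to 0.700), a log2 fold change of −0.73 with a standard error of 0.0960 (edgeR adjusted p = 0.000966). This was the most negative log2 fold change among the 10 genes, and 2.9% of all tested genes had a lower one.

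*Alox5ap* encodes FLAP, the membrane protein that presents arachidonic acid to 5-lipoxygenase (chromosome 5, 149265004 to 149288153). It stood at 361 CPM in both WT cocultures and at 302, 270 and 312 CPM in the knock-out cocultures. All 3 knock-out libraries were below both WT libraries; the log2 fold change was −0.29 ± 0.0865 (SE, edgeR adjusted p = 0.0293). The call was lost when any single knock-out library was left out, with adjusted p of 0.108, 0.144 and 0.0613 without replicates 1, 2 and 3, and under library-size scaling (0.217); over all 13 alternative fits it ran from 0.0122 to 0.239. An antisense gene, Gm19719, covers 13.3% of the *Alox5ap* exon bases. Within a library, FPKM of *Alox5ap* was 6.13 and 6.06 times that of *Alox5* in WT cocultures and 7.79, 8.54 and 8.53 times in knock-out cocultures. The groups did not overlap, and the exact two-sided permutation p of 0.1 is the smallest that 2 against 3 libraries can give. This ratio was chosen after the values were seen.

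Of the enzymes that act on leukotriene A4, 2 are encoded among the 10 genes, and neither of these genes passed the test. *Lta4h*, the hydrolase that makes leukotriene B4 (chromosome 10, 93453396 to 93484896), was at 77.6 and 80.5 CPM in WT cocultures and at 68.1, 72.2 and 59.7 CPM in knock-out cocultures. The CPM groups did not overlap but the FPKM groups did, and the log2 fold change was −0.25 with a 95% interval of −0.46 to −0.03 (edgeR adjusted p = 0.0803). Without WT replicate 1 the adjusted p was 0.0453. Without knock-out replicate 3 the log2 fold change was −0.15 (0.332), and over all 13 alternative fits the adjusted p ran up to 0.467.

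*Ltc4s*, the synthase that joins leukotriene A4 to glutathione (chromosome 11, 50236461 to 50238532), was at 27.0 and 21.9 CPM in WT cocultures. In knock-out cocultures it was at 29.9, 27.9 and 40.7 CPM. Every knock-out library was above both WT libraries, with replicate 3 standing highest. Its log2 fold change was 0.43, with a 95% interval of 0.06 to 0.80 (edgeR adjusted p = 0.0756), and it was positive in all 13 alternative fits. It was called in 5 of them, and adjusted p was 0.0267 with library-size scaling and 0.0251 without WT replicate 1, within a range of 0.0242 to 0.291. Single libraries moved its log2 fold change: it was 0.59 without WT replicate 1, 0.28 without WT replicate 2 (edgeR adjusted p = 0.206) and 0.26 without knock-out replicate 3 (0.196). An antisense gene, Gm26542, covers 26.4% of the *Ltc4s* exon bases, and whether counting used strand is not given in the sources used here.

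FPKM is corrected for transcript length, so genes can be compared on it. *Alox5* FPKM was 1.38 and 1.72 times that of *Ltc4s* in WT cocultures and 0.818, 0.719 and 0.568 times in knock-out cocultures. *Alox5* exceeded *Ltc4s* in both WT libraries and lay below it in all 3 knock-out libraries. This ratio was also chosen after the values were seen, and its exact two-sided permutation p was 0.1, the smallest possible. The FPKM ratio of *Lta4h* to *Ltc4s* averaged 0.998 ± 0.174 (SD, n = 2) in WT and 0.644 ± 0.177 (SD, n = 3) in knock-out cocultures, without overlap (exact permutation p = 0.2).

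**Figure D1:**
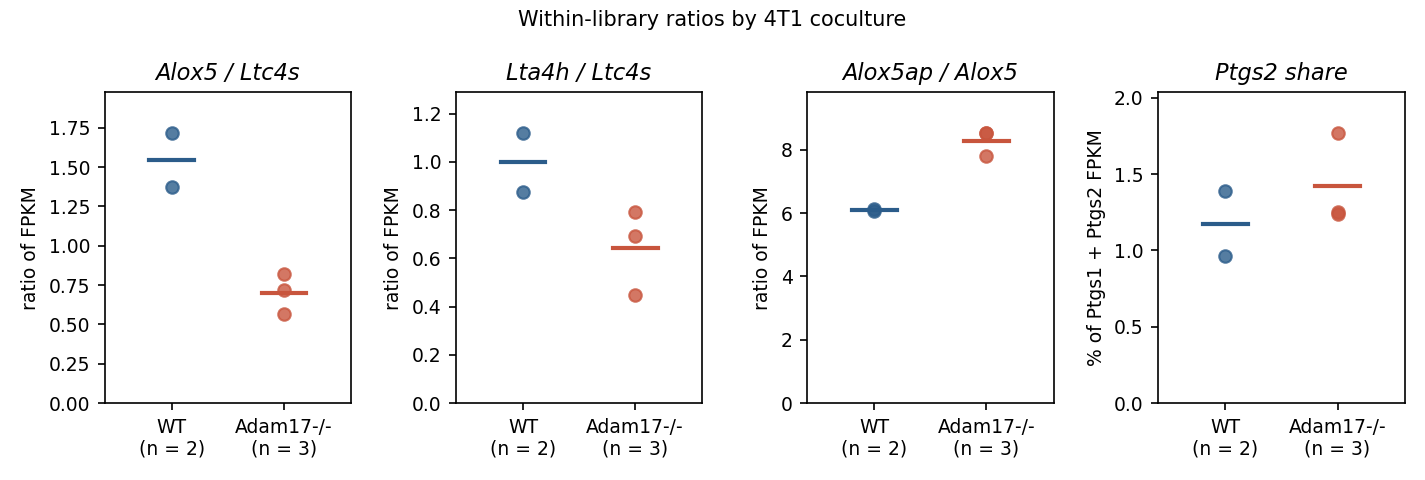
Ratios of FPKM between pairs of the genes, and the *Ptgs2* share in percent, computed within each library (2 WT, 3 *Adam17*-/- cocultures, bars at the means, vertical axes from 0). *Alox5* to *Ltc4s* lies above 1 in both WT libraries and below 1 in all 3 knock-out libraries, and the *Ptgs2* share overlaps between the groups.

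*Ltb4r1* encodes BLT1, the high-affinity leukotriene B4 receptor (chromosome 14, 55765962 to 55768492). It was at 32.6 and 26.9 CPM in WT cocultures and at 20.7, 18.4 and 20.0 CPM in knock-out cocultures. The knock-out libraries lay close together and below both WT libraries. The log2 fold change was −0.59 ± 0.114 (SE, edgeR adjusted p = 0.00496), or 0.662 of the WT level. *Alox5* and *Ltb4r1* were the only genes of the 10 called in all 13 alternative fits. All 7 macrophage markers had negative log2 fold changes, from −0.93 to −0.06 with a median of −0.64, and 5 of the 7 were called lower. Their part in the *Alox5* and *Ltb4r1* values was not tested. The neutrophil markers S100a9 and S100a8 were higher, at 646 beside 195 CPM and 222 beside 64.6 CPM on average.

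Cyclooxygenase RNA in these macrophages was almost all *Ptgs1*. *Ptgs1* encodes the constitutive enzyme COX-1 (chromosome 2, 36216742 to 36258593), and it was at 1027 and 916 CPM in WT cocultures and at 733, 754 and 771 CPM in knock-out cocultures. The groups did not overlap, and *Ptgs1* fell to 0.775 of its WT level (log2 fold change −0.37 ± 0.0856 SE, edgeR adjusted p = 0.0111). Without knock-out replicate 1 the adjusted p was 0.0718, without knock-out replicate 2 it was 0.0501, and with library-size scaling it was 0.0527, within a range of 0.000409 to 0.0726 over all 13. Relative to the median of all genes, the log2 fold change was −0.38 under TMM and −0.38 under library-size scaling. A change of scaling shifts all genes by nearly the same amount, so this likeness is no check on the call.

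*Ptgs2* encodes COX-2, the cyclooxygenase that inflammatory stimuli induce (chromosome 1, 150100031 to 150108234). It was at 15.5 and 20.1 CPM in WT cocultures and at 14.5, 14.7 and 21.7 CPM in knock-out cocultures. The groups overlapped, with 1 high library in each, and the fold of 0.956 had a 95% interval of 0.713 to 1.28 (edgeR adjusted p = 0.814). With library-size scaling its log2 fold change was positive, at 0.08. *Ptgs2* made up 0.961% and 1.39% of cyclooxygenase FPKM in WT cocultures and 1.25%, 1.24% and 1.77% in knock-out cocultures. These shares overlapped too, with means of 1.17% ± 0.302 (SD, n = 2) and 1.42% ± 0.305 (SD, n = 3) and an exact two-sided permutation p of 0.6.

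*Ptges*, the inducible microsomal prostaglandin E synthase (chromosome 2, 30889471 to 30931020), was at 15.4 and 12.7 CPM in WT cocultures and at 12.3, 11.6 and 13.9 CPM in knock-out cocultures. The groups overlapped, and the log2 fold change of −0.15 had an interval of −0.45 to 0.15 (edgeR adjusted p = 0.403). It was −0.29 without WT replicate 2 and −0.01 without WT replicate 1.

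The receptors *Ptger2* and *Ptger4* encode EP2 and EP4, through which prostaglandin E2 raises cyclic AMP. *Ptger2* (chromosome 14, 44988111 to 45003820) was at 20.8 and 25.6 CPM in WT cocultures and at 31.0, 29.6 and 28.4 CPM in knock-out cocultures. All knock-out libraries exceeded both WT libraries, and *Ptger2* rose 1.28-fold (log2 fold change 0.36 ± 0.114 SE, edgeR adjusted p = 0.0388). The call was lost in 6 of 13 alternative fits: adjusted p was 0.0661 with DESeq2, 0.0912 with a replicate block, 0.138 without WT replicate 1, and 0.136, 0.101 and 0.0775 without knock-out replicates 1, 2 and 3, and 0.00219 at its lowest, without WT replicate 2. Its log2 fold change was 0.21 without WT replicate 1 and 0.51 without WT replicate 2. *Ptger4* (chromosome 15, 5233399 to 5244187) was at 20.6 and 18.6 CPM in WT cocultures and at 20.2, 18.2 and 21.0 CPM in knock-out cocultures. The groups overlapped fully, with a log2 fold change of 0.02 and an interval of −0.23 to 0.26 (edgeR adjusted p = 0.930). The FPKM ratio of *Ptger2* to *Ptger4* overlapped between the groups (exact permutation p = 0.3).

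**Figure D2:**
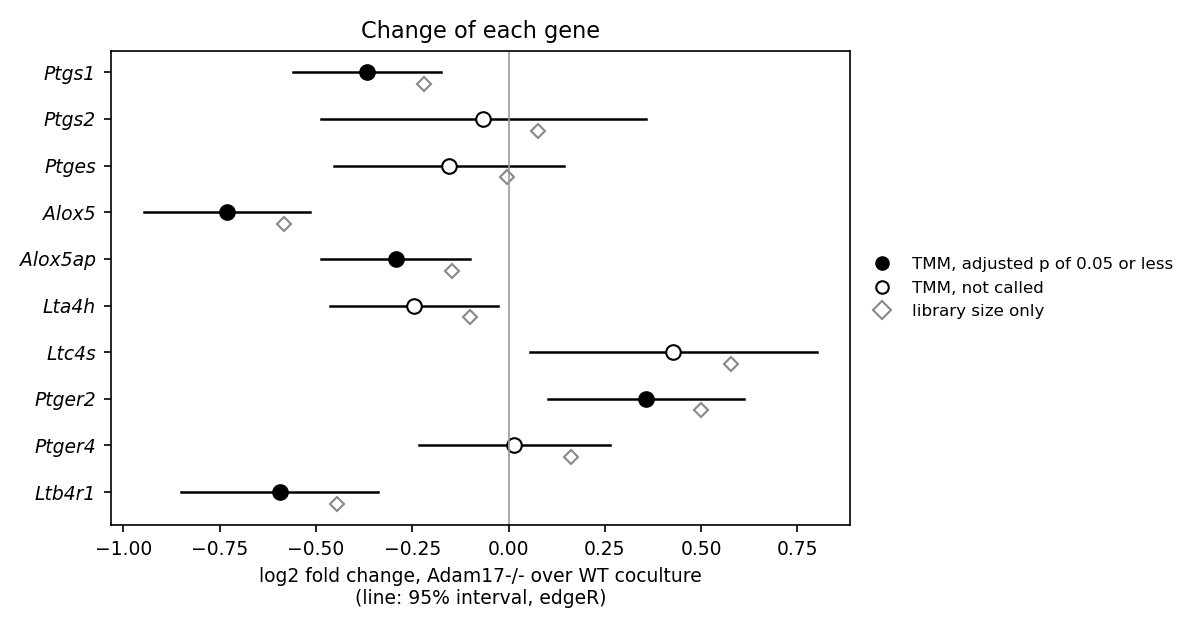
Log2 fold change of each of the 10 genes, *Adam17*-/- over WT coculture, with its 95% interval from edgeR (horizontal axis, circles and bars, filled where called, 2 WT and 3 knock-out libraries) and, as diamonds, the value with library-size scaling. *Alox5* (−0.73) and *Ltb4r1* (−0.59) lie farthest below 0, and *Ltc4s* (0.43) and *Ptger2* (0.36) lie above it.

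By FPKM, the 10 genes spanned a wide range of levels. In WT cocultures the order of mean FPKM was *Alox5ap* (353), *Ptgs1* (324), *Alox5* (57.9), *Ltc4s* (37.8), *Lta4h* (37.3), *Ltb4r1* (21.1), *Ptger2* (5.90), *Ptger4* (5.71), *Ptgs2* (3.83) and *Ptges* (3.68). *Ltc4s* and *Lta4h*, *Ptger2* and *Ptger4*, and *Ptgs2* and *Ptges* were neighbours whose libraries overlapped. In knock-out cocultures *Alox5ap* (319) and *Ptgs1* (278) stayed first in mean FPKM. *Ltc4s* (56.1 ± 11.5 FPKM, SD, n = 3) stood above *Alox5* (38.6 ± 4.10 FPKM), and *Alox5* overlapped with *Lta4h* (34.8 ± 3.39 FPKM). FPKM is the authors' own scaling, in which no factor such as TMM enters.

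**Figure D3:**
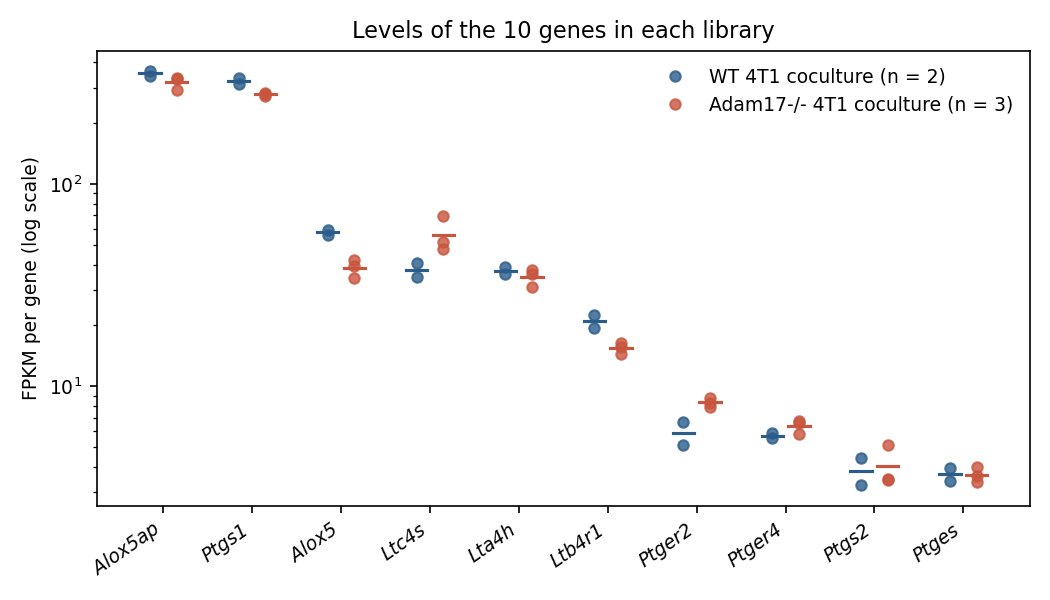
FPKM of each of the 10 genes in every library on a log axis, with genes in the order of their mean in WT cocultures; points are libraries (2 WT, 3 *Adam17*-/- cocultures) and bars are group means. *Alox5* lies at 56.2 and 59.5 FPKM in WT and at 34.2 to 42.3 FPKM in knock-out cocultures, and *Ltc4s* at 34.6 and 40.9 FPKM in WT and at 47.5 to 69.2 FPKM in knock-out cocultures.

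The promoter windows of the 3 genes that fell and have one in the reference, and of *Ptger2*, which rose, are shown because they let the start regions of genes with opposite differences be compared. Each holds the 250 bases before the RefSeq start (build GRCm38.p6), written 5′ to 3′ on the gene's strand, and capitals mark matches on either strand to a GC box (GGGCGG), an ETS core (GAGGAA) or an NF-kB pattern (GGG, any 5 bases, then CC). *Alox5* lies at chr6:116461179-116461428 on the minus strand. *Ltb4r1* lies at chr14:55765712-55765961, *Ptgs1* at chr2:36230176-36230425 and *Ptger2* at chr14:44987861-44988110, all on the plus strand. The *Ptgs1* window precedes a transcript start inside the RefSeq span of the gene given above, so it is not the region before the outermost start of that span.
Alox5: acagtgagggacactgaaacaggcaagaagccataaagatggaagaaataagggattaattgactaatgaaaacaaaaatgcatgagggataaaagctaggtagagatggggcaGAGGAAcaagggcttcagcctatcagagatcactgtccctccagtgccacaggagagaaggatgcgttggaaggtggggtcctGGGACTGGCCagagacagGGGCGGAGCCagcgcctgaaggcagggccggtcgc
Ltb4r1: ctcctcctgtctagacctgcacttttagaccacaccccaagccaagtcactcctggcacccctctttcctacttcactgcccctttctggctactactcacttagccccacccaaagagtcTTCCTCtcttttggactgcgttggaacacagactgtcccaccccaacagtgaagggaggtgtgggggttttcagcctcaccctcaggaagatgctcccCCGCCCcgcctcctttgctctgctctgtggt
Ptgs1: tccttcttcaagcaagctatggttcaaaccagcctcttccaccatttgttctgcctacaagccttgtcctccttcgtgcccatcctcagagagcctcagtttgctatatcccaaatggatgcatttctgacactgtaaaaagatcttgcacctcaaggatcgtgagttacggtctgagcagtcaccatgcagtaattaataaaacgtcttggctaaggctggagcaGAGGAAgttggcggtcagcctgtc
Ptger2: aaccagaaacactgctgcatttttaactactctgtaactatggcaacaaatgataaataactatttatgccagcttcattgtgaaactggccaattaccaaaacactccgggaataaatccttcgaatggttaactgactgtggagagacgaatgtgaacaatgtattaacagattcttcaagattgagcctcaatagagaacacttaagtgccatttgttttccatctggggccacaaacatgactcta
The *Alox5* window holds an ETS core, an NF-kB pattern and a GC box inside a further NF-kB pattern. *Ltb4r1* holds an ETS core and a GC box on the reverse strand, *Ptgs1* holds an ETS core, and *Ptger2* holds no match to any motif searched. Of the 9 genes with a window, 6 held the ETS core against 23.3% of 32851 windows of all genes, 5 the GC box against 32.7% and 5 the NF-kB pattern against 45.8%. The C/EBP pattern TTGCNNAA was in 1 (9.56% of all windows), and AP-1 (TGANTCA, 6.75%), the CRE core (TGACG, 17.8%) and TATAAA (12.4%) were in 0 of the 9. Among the 4 windows printed, GC content ran from 38.0% (*Ptger2*) to 56.8% (*Ltb4r1*), beside a median of 52.4% over all windows. The motifs were chosen after the windows were seen, and a match is a run of letters, not a binding site.

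The other genes of the pathway were taken from a list of 56, of which 52 had counts and 39 were tested. Of the 39, 9 were lower, 1 was higher and 29 did not pass, beside 16.8% lower and 14.9% higher over all tested genes. Their log2 fold changes had a median of −0.16, beside 0.01 over all tested genes. Upstream, 1 of 9 tested genes for arachidonate release was lower: *Dagla*, a diacylglycerol lipase, averaged 44.1 ± 10.7 CPM (SD, n = 2) in WT and 21.7 ± 1.36 CPM (SD, n = 3) in knock-out cocultures (log2 fold change −1.03, edgeR adjusted p = 0.00117). Its log2 fold change ranged from −1.26 to −0.76 when single libraries were left out. *Pla2g4a*, the cytosolic phospholipase A2 that frees arachidonic acid, did not pass (log2 fold change −0.26, edgeR adjusted p = 0.0820), and this turned on the WT libraries. It was at −0.40 without WT replicate 1 (0.00351) and at −0.12 without WT replicate 2 (0.285). *Lpcat3*, which returns arachidonate to phospholipids, was lower at −0.49 (edgeR adjusted p = 0.00373), whereas *Mboat7*, of like function, was at 0.02 (0.871).

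Among 7 tested genes for prostanoid synthesis outside the 10, 3 were lower and 0 higher, beside 16.8% and 14.9% of all tested genes. *Tbxas1*, thromboxane A synthase, averaged 248 ± 17.7 CPM in WT and 173 ± 13.2 CPM in knock-out cocultures (log2 fold change −0.52, edgeR adjusted p = 0.00323). *Akr1b3*, an aldose reductase with prostaglandin F synthase activity, was lower by the same log2 fold change of −0.52 (edgeR adjusted p = 0.00425), and *Cbr1*, a carbonyl reductase that acts on prostaglandin E2, was at −0.44 (0.0249). The *Cbr1* call was lost in 8 of 13 alternative fits.

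Of 3 tested prostanoid receptors other than *Ptger2* and *Ptger4*, 2 were lower, beside 16.8% of all tested genes. *Ptgir*, the prostacyclin receptor, averaged 23.6 ± 3.02 CPM in WT and 12.2 ± 1.18 CPM in knock-out cocultures (log2 fold change −0.96, edgeR adjusted p = 0.0010), beside −0.73 for *Alox5*; that difference was not tested. *Abcc4*, a transporter that exports prostaglandins, was the 1 lower gene of 6 for transport and breakdown, at −0.57 (edgeR adjusted p = 0.00172). *Zadh2*, a prostaglandin reductase, was at −0.15 (0.208).

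Of 6 tested genes for leukotriene conversion and export, 1 was higher and 1 lower, beside 14.9% and 16.8% of all tested genes. *Cyp4f18*, an enzyme that inactivates leukotriene B4, averaged 3.52 ± 1.23 CPM in WT and 8.49 ± 0.734 CPM in knock-out cocultures (log2 fold change 1.26, edgeR adjusted p = 0.00274). Its log2 fold change was 1.67 without WT replicate 1 and 0.95 without WT replicate 2. *Abcc1*, which exports leukotriene C4, was lower at −0.49 (edgeR adjusted p = 0.00248). *Dpep2*, a dipeptidase of leukotriene D4, averaged 680 and 596 CPM and did not pass (−0.19, 0.116), while it was at −0.10 without WT replicate 1 (0.327) and at −0.28 without WT replicate 2 (0.00988). Apart from *Ltb4r1*, neither of the 2 tested leukotriene receptors passed, and *Cysltr1*, a receptor for cysteinyl leukotrienes, was at 102 and 175 CPM in the WT cocultures, on either side of the 137 to 146 CPM of the knock-out cocultures. Without WT replicate 1 its log2 fold change was −0.32 (edgeR adjusted p = 0.00548), and without WT replicate 2 it was 0.46 (0.000434), so its direction depended on which WT library stayed. None of 3 tested other lipoxygenases passed, and platelet-type *Alox12* stood at 9.48 ± 1.24 CPM in WT and 15.6 ± 4.95 CPM in knock-out cocultures (log2 fold change 0.71, edgeR adjusted p = 0.0532). *Alox12* was higher in all 13 alternative fits and was called in 7, with an adjusted p of 0.00753 to 0.161 over the 13 and log2 fold changes of 0.54 to 0.98 when single libraries were left out. Megakaryocyte and platelet markers were higher in the same libraries, with a summed level of 66.4 to 70.2 CPM in WT and 108 to 173 CPM in knock-out cocultures. Their part in the *Alox12* values was not tested.

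**Figure D4:**
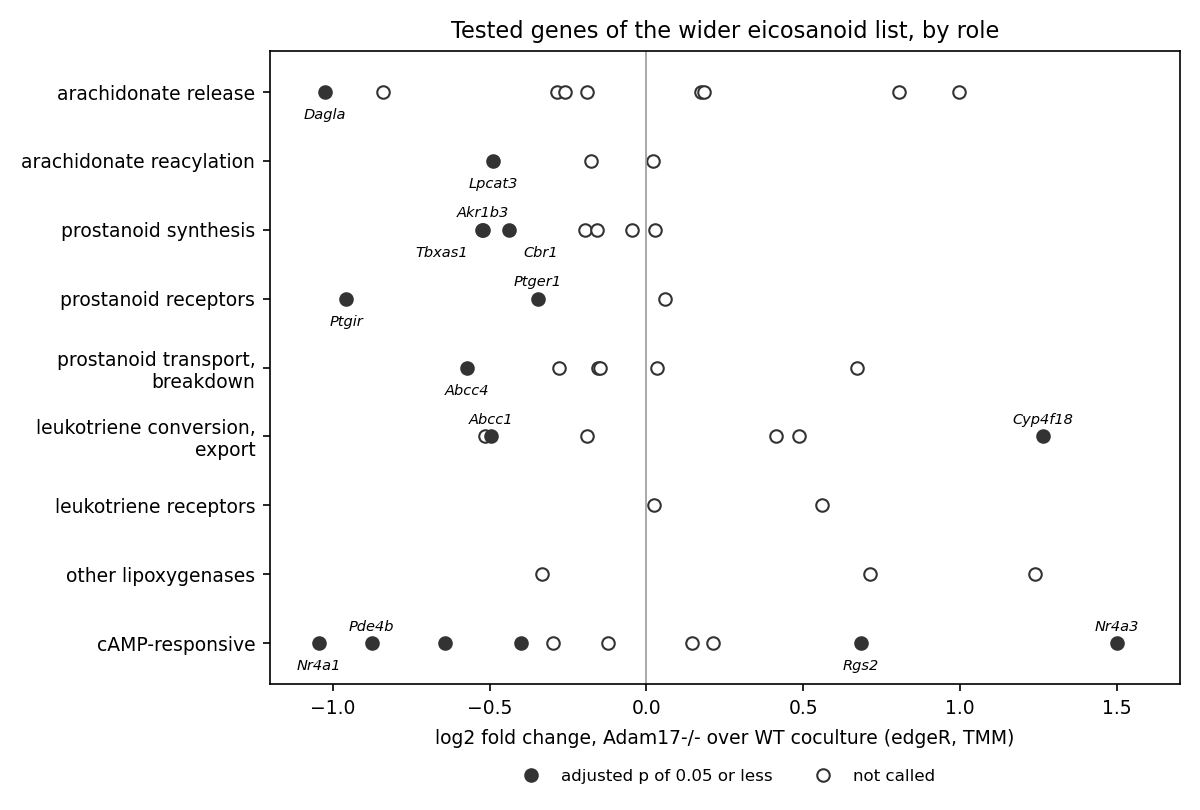
Log2 fold change, *Adam17*-/- over WT coculture, for the 39 tested other genes of the pathway and, in the lowest line, the 10 cyclic AMP-responsive genes, grouped by role (horizontal axis, 1 point a gene, filled where edgeR called it). Of the filled pathway points 9 lie below 0, with *Dagla* at −1.03, and 1 above, *Cyp4f18* at 1.26, and of the filled cyclic AMP-responsive points 4 lie below 0 and 2 above, between *Nr4a1* at −1.04 and *Nr4a3* at 1.5.

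Genes known to respond to cyclic AMP, the messenger downstream of EP2 and EP4, moved in both directions. Of 10 tested, 2 were higher and 4 lower, beside 14.9% and 16.8% of all tested genes, and the median was −0.21 on the log2 scale. *Rgs2*, a regulator of G protein signaling, rose from 65.3 ± 2.45 to 105 ± 3.03 CPM (log2 fold change 0.68, edgeR adjusted p = 0.000684), and the nuclear receptor *Nr4a3* rose from 1.38 ± 0.344 to 3.92 ± 0.551 CPM (1.5, 0.00269). *Nr4a1* fell (log2 fold change −1.04, edgeR adjusted p = 0.00833), as did *Pde4b*, a phosphodiesterase that breaks down cyclic AMP (−0.88, 0.000509).

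Mast cells, basophils and eosinophils express *Ltc4s* and *Alox5* strongly. The summed level of 9 mast cell and basophil markers with counts was 5.90 to 10.2 CPM in WT and 14.7 to 20.9 CPM in knock-out cocultures, mostly from *Hdc* (5.59 and 11.8 CPM on average), *Gata2* (1.24 and 2.42 CPM) and *Kit* (0.872 and 1.87 CPM), while *Tpsab1*, *Cpa3*, *Fcer1a* and *Ms4a2* were near 0. Eosinophil markers summed to 5.20 to 6.96 CPM in WT and 14.0 to 19.3 CPM in knock-out cocultures. Most of this came from *Siglecf* (3.87 and 12.2 CPM on average), the 1 gene called of 3 tested. *Prg2* (0.984 and 2.12 CPM, edgeR adjusted p = 0.0953) and *Epx* (0.370 and 1.06 CPM, 0.161) did not pass. The sums of both marker lists were low, and they were higher in the same libraries in which *Ltc4s* was higher. Their part in the *Ltc4s* values was not tested. Epithelial markers, which 4T1 cells carry, summed to 11.5 to 13.1 CPM in WT and 11.8 to 14.2 CPM in knock-out cocultures, with 0 of 1 tested called. Nearly all of this came from *Cdh1* (11.2 and 12.4 CPM on average), while *Krt7* (0.584 and 0.327 CPM) and *Krt18* (0.32 and 0.36 CPM) were near 0.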

How the data were processed

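Macrophage poly-A RNA of 5 libraries (2 WT, 3 *Adam17*-/- 4T1 cocultures) was sequenced on a BGISEQ-500. Per the labels, reads were handled with Bowtie2, RSEM, Bowtie and DESeq2 on mm10 (GRCm38). The deposited tables list, for each RefSeq transcript, its length, an RSEM expected count and an FPKM value, with no FPKM under 0.01. Expected counts, the authors' estimates from RSEM, were summed per gene and rounded to whole numbers, and FPKM values, which the authors scaled to length and depth, were summed per gene. Sums of 16.0% to 16.8% of genes were not whole within 0.005, but those of the 10 genes were. Gene symbols were matched for 17015 of 17058 identifiers. Promoter windows are from RefSeq.

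Counts were fitted in edgeR 4.0.16 (R 4.3.3) with TMM scaling, filterByExpr and the quasi-likelihood test. A gene was called where its adjusted p was at most 0.05. Fold-change errors come from that fit. CPM uses TMM-scaled library sizes. The fit was tested on simulated counts. Alternatives used DESeq2 1.42.0, limma 3.58.1 on log2(FPKM + 0.1) and log2(FPKM + 1), other scalings and filters, a replicate block, and each library left out in turn.

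The members and gene lists were chosen with earlier results of these data known. Named genes were the 10 members and, per group of the wider list, up to 4 called genes by size of change and the gene of highest FPKM. The values of 1 called prostanoid receptor gene are not reported here. Of each marker list of another cell type, up to 3 genes of highest CPM were eligible, and the mast cell markers near 0 were named beyond that rule, after their values were seen, because they define the cell type. Libraries of 1 group differed by more than sampling noise, with a chi-square per degree of freedom of 25.7 for the WT pair and 5.22 to 6.32 for knock-out pairs.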

Additional observations from a re-analysis of the deposited data

How the results depend on the processing

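Across 13 alternative fits, *Alox5* and *Ltb4r1* stayed called and lower, with log2 fold changes of −0.78 to −0.58 and −0.73 to −0.42. *Ptgs1* and *Alox5ap* were lower in all 13 and lost their call in 6 and 8. *Ptger2* was higher in all 13 and lost its call in 6, and *Ltc4s* was higher in all 13 and was called in 5. *Ptgs2* turned positive with library-size scaling (0.0771) and limma (0.0616 with 0.1 added to FPKM, 0.0511 with 1 added), and ran from −0.27 to 0.13 when libraries were left out. Over the same omissions *Ptger4* ran from −0.0598 to 0.0903, *Mboat7* from −0.0319 to 0.0707 and *Cysltr1* from −0.32 to 0.46. The count of the 10 genes called was 5, and 2 to 6 without 1 library. It was 0 with a log2 limit of 1 and 1 at an adjusted p under 0.001 with a log2 limit of 0.25. For all genes, 3983 calls became 2015 to 5400 without 1 library, 531 and 311 under those limits. For the wider list with the cyclic AMP-responsive genes, 16 became 13 to 24, 4 and 2. The *Ptgs2* share differed by 0.247 points, by 0.378 from counts, and by 0.0334 to 0.460 without 1 library. Ranking by CPM in place of FPKM moved 5 of the 10 genes. The cause of these shifts was not tested.

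Replicate numbers are shared between the groups. Deviations from the group mean had correlations of −0.124 and −0.0504 between same-numbered libraries. The deviations of the 2 WT libraries mirror each other, so these values cannot decide whether the numbers pair the libraries. With a replicate block, 2342 genes and 2 of the 10 were called, and *Ptger4* was at −0.0309. With 2 and 3 libraries a group, small differences at low counts could not be detected.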

Other observations

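*Ptger4* has 2 listed transcripts, of 3327 and 3264 bases. The longer one took 37.8% and 42.0% of the gene's FPKM in WT cocultures and 49.7%, 52.1% and 53.9% in knock-out cocultures. The groups did not overlap, with means of 39.9% ± 2.97 (SD, n = 2) and 51.9% ± 2.10 (SD, n = 3), although the level of the gene as a whole overlapped. The exact two-sided permutation p was 0.1, the smallest that these libraries allow, and counts per transcript are RSEM estimates that were not whole. The minor transcript of *Lta4h* took 6.34% to 7.54% of its FPKM over all 5 libraries, and the main transcript of *Ltc4s* 92.9% to 96.5%.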
